A study of Homo sapiens with 6 samples.

Results

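The guides described here target genes that modify or read histones and genes that carry histones onto and off DNA. They were chosen by name, as every guide whose gene symbol begins with Kdm, Hdac, Cbx, Asf1, Chaf1, Morf4l or Supt16 or is Ssrp1, and 52 of the 1887 guides of the library met this rule. They target 13 of its 459 genes, with 4 guides for each gene. The 8 histone modifier genes have 32 guides and comprise the lysine demethylases Kdm1a, Kdm2a and Kdm4d, the deacetylases Hdac9 and Hdac10, the Polycomb reader Cbx8, and the chromodomain protein Morf4l1 with its relative Morf4l2. The 5 histone chaperone genes have 20 guides and comprise Asf1a, the CAF-1 subunits Chaf1a and Chaf1b, and the FACT subunits Ssrp1 and Supt16. The gene symbols are written in the mouse style although the cells are human.

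Histone modifiers add or remove chemical groups on histone tails, and readers such as Cbx8 bind the marked tails. Histone chaperones hold histones that are off the DNA. Asf1a passes H3 and H4 to CAF-1, which places them on newly copied DNA, and FACT loosens and rebuilds nucleosomes in front of and behind polymerases. Chromatin around a DNA break is opened before repair and restored after it, and several of these proteins have been placed at breaks. Subunits of CAF-1 and FACT are needed for proliferation in many human cell lines.

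The data came from a screen in which each construct carried a pair of guide RNAs, so that a cell could lose the function of 2 genes at once. The cells were eHAP iCas9-cl#6, 1 clone of eHAP, which is a human line descended from the near-haploid leukemia line HAP1, with Cas9 under doxycycline control and a p53 null genotype shared by all groups. The 3 groups have 2 replicates each. Irradiated cells were collected at day 15 after 10 population doublings, with 0.6 Gy of X-rays 24 hours after each split; unirradiated cells were collected at day 14 after 12 population doublings of standard growth; and day 0 cells served as the start. Cells were split every 3 days and received doxycycline for 7 days, and the library was delivered at a multiplicity of infection of 0.15. The 7 days of doxycycline are listed for the day 0 libraries too. Whether day 0 cells were collected before or after doxycycline is not settled here, and guides lost before day 0 would not show a change against it. The labels are not of one mind on how lethal the dose of X-rays was, and no such figure is used here. Nothing in them says that replicates came from separate cultures, so p-values measure the spread between these libraries.

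The reads of a construct count the cells in which it had integrated, up to the bias of the PCR. The irradiated libraries held 71481191 and 86587125 reads, the day 14 libraries 61962789 and 61185707, and the day 0 libraries 84399152 and 86542435. Constructs with at least 1 of the 52 guides made up between 5.4% and 5.93% of the reads. Each guide was met with between 846 and 937 partner guides, and summing over them gave the guide's count. The sums averaged over the 6 libraries had a median of 78790 reads for modifier guides and 58509 for chaperone guides, against 67547 for all guides. Guides 1 and 2 of a gene stood at position 1 of the construct and guides 3 and 4 at position 2, with 26 of the 52 guides at each. Kdm4d_sg2 had between 622 and 1162 reads, below the minimum mean of 2000 reads set for a test, and the other 51 guides were tested among 1849.

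There were 3 libraries that stood apart. Of the 863546 guide pairs, 49.4% had no reads in irradiated replicate 2 and 54.1% had none in day 14 replicate 1, while the other 4 libraries lacked between 1.9% and 7.6%. Among partners of modifier guides the median share without reads was 47.6% in irradiated replicate 2, and among partners of chaperone guides it was 54.1%. In day 14 replicate 1 these shares were 50.9% for modifier guides and 60.0% for chaperone guides. In day 0 replicate 1, 264 of 927 guides at position 2 had a share of the reads whose log2 ratio to that in replicate 2 was under -0.4, and 0 of the 26 guides described here were among them. Their log2 ratios at position 2 ran from -0.02 to 0.39 with a median of 0.26, against 0.10 for all guides at position 2. That 0.10 includes the 264 low guides, and a median without them was not computed. A position 2 guide of these genes therefore tended to read higher in 1 of the 2 day 0 libraries, and for each of the 13 genes the changes against day 0 are also given without that library.

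Values below are CPM, the count of a guide as a part of the counts of all guides at its position, or the sum of a gene as a part of the sums of all genes. They follow TMM scaling, which evens out the libraries by a trimmed mean of log ratios. Changes are log2 ratios with the standard error of the fit, and a guide or gene passed the test at a Benjamini-Hochberg adjusted p under 0.05 in edgeR's quasi-likelihood test over all 1849 guides or all 459 genes. The 2 comparisons against day 0 share the day 0 libraries.

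The first question was whether guides against these genes were lost over 14 days of growth. None of the 51 guides passed the test at day 14 against day 0, and none of the 1849 did, so that the share called was 0.0%. At an unadjusted p under 0.05 there were 4 of the 51 guides, all against modifiers, and 79 of the 1849. The median log2 change was -0.04 for modifier guides and -0.04 for chaperone guides, against 0.00 for all guides. With day 0 replicate 1 left out, these medians were 0.01 for modifier guides and -0.01 for chaperone guides. In 14 of the 51 guides both day 14 libraries lay below both day 0 libraries, where the share over all guides was 21.5%, and in 6 both lay above, where it was 19.5%. Log2 changes ran from -0.37 to 0.15, inside the range of -0.41 to 0.41 spanned by the 61 non-targeting guides, which are designed to match no gene. In day 0 replicate 1 the lowest non-targeting guide stood at -0.47 relative to the day 0 mean, which was also the minimum over all guides. The non-targeting ranges against day 0 include that library and are not given without it. In all, 34 of the 51 log2 changes were below 0, where the share over all guides was 50.3%, and without day 0 replicate 1 there were 25.

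The second question was what the whole course with radiation did. At day 15 after irradiation against day 0, 0 of the 51 guides passed the test, at a share of 0.0% over all guides. At an unadjusted p under 0.05 there were 3 of the 51 guides and 57 of the 1849. The median log2 change was -0.03 for modifier guides and -0.01 for chaperone guides, against 0.00 for all guides. In the fit without day 0 replicate 1, it was -0.01 for modifier guides and 0.01 for chaperone guides. Both irradiated libraries lay below both day 0 libraries for 9 of the 51 guides, where the share over all guides was 18.3%, and above them for 5, where it was 18.2%. Of the 51 log2 changes, 31 were below 0, where the share over all guides was 51%, and without day 0 replicate 1 there were 24. Only Kdm1a_sg3, at -0.47, lay outside the range of the non-targeting guides, which ran from -0.30 to 0.45.

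The third question was whether these guides differed between irradiated cells and cells under growth alone. These groups also differ in day, 15 against 14, and in population doublings, 10 against 12. Radiation cannot be told apart from these differences. Between irradiated day 15 cells and day 14 cells, 0 of the 51 guides passed the test, at a share of 0.0% over all guides. At an unadjusted p under 0.05 there were 2 of the 51 guides and 83 of the 1849. The median log2 change was 0.00 for modifier guides and 0.02 for chaperone guides, against 0.00 for all guides. The irradiated libraries both lay below the day 14 libraries for 7 of the 51 guides, where the share over all guides was 15.8%, and above them for 8, where it was 15.1%. The non-targeting guides ran from -0.21 to 0.173 here, and 3 of the 51 guides lay above that range, which were Kdm2a_sg1 at 0.25, Ssrp1_sg4 at 0.25 and Chaf1b_sg1 at 0.174.

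Between replicates the guide sums varied by a biological coefficient of 0.0961, and the median 95% interval of the 51 guides reached 0.19 to either side on the log2 scale. Of changes simulated for day 14 against day 0 over 1849 guides, 25.4% were recovered at 1.25-fold, 85.1% at 1.5-fold and 100% at 2-fold. The simulation changed 67 guides at 1.25-fold, 67 at 1.5-fold and 66 at 2-fold together. That makes an adjusted p easier to pass than when few guides change. Changes of the size seen for most of these guides were therefore not detectable guide by guide at this number of libraries.

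Modifier and chaperone guides were next set side by side in each library, as the median log2 value relative to the day 0 mean. In the irradiated libraries modifier guides lay at -0.03 and -0.03, and chaperone guides at -0.01 and -0.03. In the day 14 libraries modifier guides lay at -0.02 and -0.05, and chaperone guides at -0.03 and -0.05. In day 0 replicates 1 and 2 modifier guides lay at 0.05 and -0.05 and chaperone guides at 0.01 and -0.01, so that for modifiers the irradiated and day 14 libraries lay inside the span of the day 0 libraries. For chaperones the day 14 libraries lay below both day 0 libraries and the irradiated ones overlapped them. Over all guides the median was 0.00 in every library. At position 1 alone the modifier guides of day 0 lay closer together, at -0.006 and 0.006. There the irradiated libraries lay on either side of them, at 0.009 and -0.033, and the day 14 libraries were at -0.016 and -0.003. At position 2 alone the modifier guides of day 0 lay at 0.10 and -0.10. Modifiers minus chaperones came to -0.02 and 0.00 in the irradiated libraries, 0.01 and 0.00 in the day 14 libraries and 0.03 and -0.03 in the day 0 libraries. At position 2 alone the difference was -0.01 and 0.04 in the irradiated libraries, 0.05 and 0.00 in the day 14 libraries and 0.03 and -0.03 in the day 0 libraries. The 2 day 0 values mirror each other throughout, because each guide was set against the mean of these 2 libraries.

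Taking all constructs of a gene together gave a narrower test, with a biological coefficient of 0.0586 and 95% intervals of the 13 genes that reached 0.13 to either side at the median. Simulated 1.25-fold changes were recovered in 92.5% of cases over 459 genes. In that run 67 genes changed at 1.25-fold, 67 at 1.5-fold and 66 at 2-fold together, which makes an adjusted p easier to pass. Recovery of a single changed gene was not simulated. At day 14 against day 0, 0 of the 13 genes and 0.0% of all genes passed, with 18 of the 459 at an unadjusted p under 0.05. Day 14 libraries both lay below day 0 for 6 of the 13 genes, where the share over all genes was 20.3%, and above for 0, where it was 20.5%. These 6 genes were Asf1a, Chaf1b, Hdac9, Kdm1a, Kdm2a and Morf4l1. The log2 change was below 0 for 11 of the 13 genes, where the share over all genes was 48.4%. It was below 0 for 7 of 13 without day 0 replicate 1, and for 6 of 13 when libraries were scaled to the non-targeting constructs. The median over the 13 genes was -0.04, against 0.01 for all genes, and with the non-targeting scaling it was 0.03, against 0.08 for all genes.

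For irradiated day 15 against day 0, again 0 of the 13 genes and 0.0% of all genes passed, with 18 of the 459 at an unadjusted p under 0.05. The irradiated libraries lay below day 0 for 3 of the 13 genes, Chaf1a, Chaf1b and Kdm1a, where the share over all genes was 18.1%, and above for 0, where it was 20.7%. The log2 change was below 0 for 10 of the 13 genes, where the share over all genes was 52.1%. The median was -0.05, against 0.00 for all genes. Values without day 0 replicate 1 are given gene by gene below. For irradiated day 15 against day 14, 0 of the 13 genes and 0.0% of all genes passed, with 12 of the 459 at an unadjusted p under 0.05. Irradiated libraries lay below day 14 for Chaf1a and Kdm1a, 2 of the 13 genes where the share over all genes was 17.6%. They lay above for Chaf1b, Kdm2a and Supt16, 3 of the 13 genes where the share was 16.6%. Among the 13 genes, the largest log2 change in size over the 3 comparisons was that of Kdm1a at -0.14.

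Kdm1a, also called LSD1, removes methyl groups from lysine 4 of histone H3 and works in the CoREST repressor complex. The human gene lies on chromosome 1 from 23019468 to 23083689 (GRCh38.p14, like all positions here). Its constructs summed to 2014 and 1957 CPM in irradiated cells, 2032 and 2099 at day 14, and 2224 and 2143 at day 0. Both later groups lay below day 0 in every library. The log2 change was -0.14 ± 0.046 (SE, 2 libraries a group) for irradiated cells against day 0, with an edgeR p of 0.0245 and an adjusted p of 0.623. For day 14 against day 0 it was -0.08 ± 0.046, with an adjusted p of 0.549. Without day 0 replicate 1, the Kdm1a values were -0.11 in irradiated cells and -0.05 at day 14. Scaled to the non-targeting constructs, they were -0.15 in irradiated cells and -0.01 at day 14. For irradiated cells against day 0, guides at position 1 alone gave -0.08 and guides at position 2 alone -0.32. Constructs that paired a Kdm1a guide with a non-targeting guide, which are fewer, gave -0.002 in irradiated cells and 0.016 at day 14 against day 0.

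The 4 Kdm1a guides did not move alike. Kdm1a_sg3 had 611 and 631 CPM in irradiated cells, 694 and 633 at day 14, and 927 and 792 at day 0, and no library of one group overlapped another group. Its log2 change was -0.47 ± 0.098 for irradiated cells against day 0, ninth lowest of 1849 guides, with an edgeR p of 0.00407 and an adjusted p of 0.389. For day 14 against day 0 it was -0.37 ± 0.098, with an adjusted p of 0.646. With day 0 replicate 1 left out, these values were -0.35 and -0.25, and without day 0 replicate 2 they were -0.58 and -0.48, with adjusted p-values of 0.000961 and 0.00359 in edgeR. In that setting, which leaves day 0 replicate 1 as the only day 0 library, 312 and 310 of the 1849 guides passed. DESeq2's Wald test on all 6 libraries called 27 guides for irradiated cells against day 0, and Kdm1a_sg3 was among them with an adjusted p of 0.00438.

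The lower value of Kdm1a_sg3 was spread over its partners. Between the libraries with few missing pairs, 661 of 921 constructs with reads (71.8%) were lower in irradiated replicate 1 than in day 0 replicate 2, where the median guide at position 2 had 58.7% of its constructs lower. In day 14 replicate 2 against the same day 0 library, 660 of 923 constructs (71.5%) were lower, against a median of 55.9%. The most abundant construct held 2.96% of the guide's reads in irradiated replicate 1. The other Kdm1a guides had log2 changes of -0.03, -0.10 and -0.05 for irradiated cells against day 0 (Kdm1a_sg1, Kdm1a_sg2 and Kdm1a_sg4). The standard deviation over the 4 Kdm1a guides was 0.207, the highest of the 13 genes, where the median gene of the library had 0.103, and without day 0 replicate 1 it was 0.174, where the median gene had 0.063. How often each guide disrupted its gene was not measured here.

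Kdm2a removes methyl groups from lysine 36 of histone H3 and binds CpG islands (chromosome 11, 67119263 to 67258082). Kdm2a constructs summed to 2579 and 2464 CPM in irradiated cells, 2317 and 2321 at day 14, and 2587 and 2504 at day 0. The day 14 libraries were low and the irradiated ones lay near day 0. The log2 change was 0.12 ± 0.043 for irradiated cells against day 14 (edgeR p 0.0316, adjusted p 0.996) and -0.13 ± 0.043 for day 14 against day 0 (edgeR p 0.0212, adjusted p 0.549). For irradiated cells against day 0 it was -0.01 ± 0.043. In the fit without day 0 replicate 1, the Kdm2a values against day 0 were 0.01 in irradiated cells and -0.11 at day 14. Scaled to the non-targeting constructs, Kdm2a was at 0.04 for irradiated cells against day 14 and at -0.07 for day 14 against day 0.

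The guide with the smallest p was again far from the others of its gene. Kdm2a_sg1 had 1935 and 1725 CPM in irradiated cells, 1531 and 1539 at day 14, and 1779 and 1882 at day 0. Its irradiated and day 0 libraries overlapped and its day 14 libraries lay below both. The log2 change of Kdm2a_sg1 was 0.25 ± 0.070 for irradiated cells against day 14, with an edgeR p of 0.0128 and an adjusted p of 0.986, and -0.25 ± 0.070 for day 14 against day 0, with an adjusted p of 0.646. In the libraries with few missing pairs, 334 of 933 Kdm2a_sg1 constructs (35.8%) were lower in irradiated replicate 1 than in day 14 replicate 2, where the median guide at position 1 had 54.0%. The other 3 Kdm2a guides had log2 changes from 0.03 to 0.05 in that comparison.

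Kdm4d removes methyl groups from lysine 9 of histone H3 (chromosome 11, 94973709 to 94999519). It summed to 1578 and 1489 CPM in irradiated cells, 1521 and 1536 at day 14, and 1692 and 1520 at day 0. All 3 groups overlapped. Log2 changes were -0.07 ± 0.068 for irradiated cells against day 0, 0.00 ± 0.068 against day 14, and -0.07 ± 0.068 for day 14 against day 0. Without day 0 replicate 1, both Kdm4d values against day 0 turned, to 0.01 in irradiated cells and 0.01 at day 14.

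The deacetylases take acetyl groups off proteins. Hdac9 (chromosome 7, 18086825 to 19002416) is a class IIa enzyme, and Hdac10 (chromosome 22, 50245183 to 50251265) is a class IIb enzyme that acts on polyamines. Hdac9 constructs summed to 2120 and 2208 CPM in irradiated cells, 2158 and 2132 at day 14, and 2353 and 2170 at day 0. Hdac10 constructs summed to 4496 and 4759 in irradiated cells, 4880 and 4450 at day 14, and 4690 and 4437 at day 0. Day 14 lay narrowly below day 0 for Hdac9, and the other groups overlapped for both genes. Gene log2 changes lay between -0.08 and 0.03 in the 3 comparisons. With day 0 replicate 1 left out, Hdac9 was at 0.00 in irradiated cells and -0.02 at day 14 against day 0, and Hdac10 at 0.06 and 0.07 in that order.

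Hdac10_sg1 had the smallest p of the deacetylase guides. It had 1490 and 1448 CPM in irradiated cells, 1687 and 1604 at day 14, and 1487 and 1474 at day 0, so that day 14 lay above the other groups. The log2 change of Hdac10_sg1 was -0.16 ± 0.049 for irradiated cells against day 14, with an edgeR p of 0.0186 and an adjusted p of 1.00. It was 0.15 ± 0.049 for day 14 against day 0, with an adjusted p of 0.646. Hdac9_sg3, the guide of smallest p in the family for irradiated cells against day 0, had 929 and 982 in irradiated cells, 1019 and 934 at day 14, and 1134 and 966 at day 0. Its groups overlapped, at a log2 change of -0.14 ± 0.098.

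Cbx8 is a subunit of Polycomb repressive complex 1 that binds methylated lysine 27 of histone H3 (chromosome 17, 79792132 to 79797077). It summed to 2803 and 2868 CPM in irradiated cells, 2928 and 2829 at day 14, and 3043 and 2856 at day 0, and the groups overlapped. Its log2 changes against day 0 were -0.06 ± 0.047 in irradiated cells and -0.04 ± 0.047 at day 14, and without day 0 replicate 1 they were -0.01 and 0.01. Cbx8_sg3 had 1058 and 1193 in irradiated cells, 1187 and 1108 at day 14, and 1405 and 1270 at day 0. Both later groups lay below day 0, at log2 changes of -0.25 ± 0.088 for irradiated cells (edgeR p 0.0336, adjusted p 0.789) and -0.22 ± 0.088 at day 14 (edgeR p 0.0497, adjusted p 0.646). Without day 0 replicate 2, which leaves day 0 replicate 1 as the only day 0 library, the irradiated value was -0.32. Without day 0 replicate 1 it was -0.17. Cbx8_sg3 read higher in day 0 replicate 1 than in replicate 2, at a log2 ratio of 0.24 before TMM scaling. Cbx8_sg2, of smallest p in irradiated cells against day 14, had 1213 and 1059 in irradiated cells, 1230 and 1196 at day 14, and 1184 and 1194 at day 0.

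Morf4l1, also called MRG15, is a chromodomain subunit of the TIP60 acetyltransferase and Sin3 deacetylase complexes and binds the recombination protein PALB2 (chromosome 15, 78872890 to 78898139). Morf4l2 is its relative (chromosome X, 103675498 to 103688047). Morf4l1 summed to 2378 and 2642 CPM in irradiated cells, 2388 and 2422 at day 14, and 2482 and 2430 at day 0. Morf4l2 summed to 1309 and 1323 in irradiated cells, 1330 and 1301 at day 14, and 1375 and 1300 at day 0. Apart from the day 14 and day 0 libraries of Morf4l1, which did not overlap, the groups overlapped for both genes. Log2 changes ran from -0.03 to 0.06 for Morf4l1 and from -0.02 to 0.00 for Morf4l2. In the fit without day 0 replicate 1, the values against day 0 were 0.05 in irradiated cells and -0.02 at day 14 for Morf4l1, and 0.02 in both for Morf4l2.

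Within Morf4l1 the guides at the 2 positions differed. For irradiated cells against day 0 the log2 changes were 0.08 and 0.13 for Morf4l1_sg1 and Morf4l1_sg2 at position 1, and -0.18 and -0.20 for Morf4l1_sg3 and Morf4l1_sg4 at position 2. Morf4l1_sg3 had 753 and 804 CPM in irradiated cells, 696 and 811 at day 14, and 943 and 827 at day 0. Morf4l1_sg1 had 1889 and 2078 in irradiated cells, 1930 and 1876 at day 14, and 1894 and 1865 at day 0. For Morf4l1_sg3 the log2 ratio of day 0 replicate 1 to replicate 2 was 0.29. The median was 0.26 for the 26 guides described here at position 2 and 0.10 for all guides at position 2, the 264 low guides included. Without day 0 replicate 1, the log2 changes of irradiated cells against day 0 were 0.09 for Morf4l1_sg1, 0.09 for Morf4l1_sg2, -0.09 for Morf4l1_sg3 and -0.05 for Morf4l1_sg4.

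Among the chaperones, Asf1a (chromosome 6, 118894152 to 118909171) receives H3 and H4 and hands them to CAF-1 and to HIRA. It summed to 2335 and 2251 CPM in irradiated cells, 2230 and 2286 at day 14, and 2539 and 2331 at day 0. The day 14 libraries lay below day 0 and the irradiated ones overlapped it narrowly. Log2 changes were -0.09 ± 0.055 for irradiated cells against day 0 (adjusted p 0.623), 0.02 ± 0.055 against day 14, and -0.11 ± 0.055 for day 14 against day 0 (adjusted p 0.549). With day 0 replicate 1 left out, the Asf1a values were -0.02 in irradiated cells and -0.05 at day 14.

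The 4 Asf1a guides had log2 changes of 1 sign against day 0. Asf1a_sg1 had 509 and 430 CPM in irradiated cells, 434 and 490 at day 14, and 501 and 512 at day 0. Asf1a_sg2 had 1251 and 1149 in irradiated cells, 1173 and 1272 at day 14, and 1280 and 1283 at day 0. For both guides day 14 lay below day 0. Asf1a_sg3 had 1795 and 1897 in irradiated cells, 1833 and 1769 at day 14, and 2104 and 1833 at day 0. Asf1a_sg4 had 979 and 932 in irradiated cells, 948 and 926 at day 14, and 1018 and 925 at day 0. In these position 2 guides day 0 replicate 1 was the high library. Log2 changes of the 4 guides ran from -0.11 to -0.02 for irradiated cells against day 0 and from -0.13 to -0.05 for day 14 against day 0. In the fit without day 0 replicate 1, Asf1a_sg3 and Asf1a_sg4 were at 0.01 and 0.05 for irradiated cells against day 0.

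Chaf1a and Chaf1b are the large and middle subunits of CAF-1 (chromosome 19, 4402640 to 4450830, and chromosome 21, 36385392 to 36419015). Chaf1a summed to 1417 and 1382 CPM in irradiated cells, 1500 and 1456 at day 14, and 1477 and 1429 at day 0. Chaf1b summed to 2154 and 2107 in irradiated cells, 2072 and 2096 at day 14, and 2157 and 2239 at day 0. Irradiated cells were the low group for Chaf1a and day 14 cells for Chaf1b. The log2 change of irradiated cells against day 14 was -0.08 ± 0.050 for Chaf1a and 0.03 ± 0.043 for Chaf1b, with an adjusted p of 0.996 for both. Against day 0 both genes were at -0.05 in irradiated cells, and at day 14 Chaf1a was at 0.02 and Chaf1b at -0.08. Without day 0 replicate 1, the values were -0.03 in irradiated cells and 0.05 at day 14 for Chaf1a, and -0.07 and -0.10 for Chaf1b.

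All 4 Chaf1a guides had log2 changes below 0 in irradiated cells against day 14, from -0.10 to -0.02. Chaf1a_sg1 had 605 and 663 CPM in irradiated cells, 688 and 668 at day 14, and 622 and 645 at day 0. Chaf1a_sg2 had 1216 and 1102 in irradiated cells, 1219 and 1246 at day 14, and 1257 and 1207 at day 0. For these position 1 guides the irradiated libraries lay below day 14. Chaf1a_sg3 had 264 and 280 in irradiated cells, 284 and 268 at day 14, and 284 and 258 at day 0. Chaf1a_sg4 had 663 and 648 in irradiated cells, 742 and 650 at day 14, and 732 and 668 at day 0. For these position 2 guides irradiated cells and day 14 overlapped.

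The Chaf1b guides were less alike. Chaf1b_sg3 had 1342 and 1352 CPM in irradiated cells, 1480 and 1380 at day 14, and 1489 and 1613 at day 0, and the 3 groups did not overlap. Its log2 change was -0.20 ± 0.063 for irradiated cells against day 0 (edgeR p 0.0207, adjusted p 0.789), and -0.26 without day 0 replicate 1. Chaf1b_sg3 was lower in day 0 replicate 1 than in replicate 2, at a log2 ratio of -0.02 before TMM scaling. Chaf1b_sg1 had 883 and 833 in irradiated cells, 721 and 800 at day 14, and 837 and 837 at day 0, with day 14 the low group at a log2 change of 0.17 ± 0.075 for irradiated cells against day 14 (adjusted p 1.00). Chaf1b_sg2 had 1215 and 1192 in irradiated cells, 1158 and 1142 at day 14, and 1158 and 1187 at day 0. Chaf1b_sg4 had 740 and 738 in irradiated cells, 704 and 762 at day 14, and 706 and 731 at day 0. Its irradiated libraries stood just above day 0, at a log2 change of 0.04 ± 0.067.

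Ssrp1 and Supt16 together form FACT, which takes H2A and H2B off nucleosomes and puts them back (chromosome 11, 57325988 to 57335892, and, for the human gene SUPT16H, chromosome 14, 21351476 to 21384019). Ssrp1 summed to 1217 and 1162 CPM in irradiated cells, 1117 and 1182 at day 14, and 1195 and 1164 at day 0. Supt16 summed to 2127 and 2107 in irradiated cells, 2090 and 2088 at day 14, and 2200 and 2084 at day 0. Of the FACT comparisons, only that of irradiated cells against day 14 for Supt16 had groups that did not overlap, with a log2 change of 0.02 ± 0.045. The 95% intervals for day 14 against day 0 ran from -0.18 to 0.11 for Ssrp1 and from -0.15 to 0.07 for Supt16. With day 0 replicate 1 left out, the log2 changes against day 0 were 0.03 in irradiated cells and -0.02 at day 14 for Ssrp1, and 0.02 and 0.00 for Supt16.

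Ssrp1_sg1 had 229 and 236 CPM in irradiated cells, 240 and 220 at day 14, and 237 and 221 at day 0. Ssrp1_sg2 had 1329 and 1249 in irradiated cells, 1226 and 1287 at day 14, and 1231 and 1249 at day 0. Ssrp1_sg3 had 573 and 517 in irradiated cells, 525 and 570 at day 14, and 638 and 572 at day 0. The position 1 guides overlapped in all groups, and Ssrp1_sg3 lay below day 0 only at day 14. Ssrp1_sg4 had 230 and 262 in irradiated cells, 193 and 222 at day 14, and 232 and 223 at day 0. Its log2 change was 0.25 ± 0.122 for irradiated cells against day 14 (edgeR p 0.0939, adjusted p 1.00), with day 14 below both other groups. Ssrp1_sg4 had the fewest reads of all chaperone guides, 17295 on average.

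Supt16_sg1 had 1424 and 1470 CPM in irradiated cells, 1550 and 1449 at day 14, and 1384 and 1406 at day 0, and both later groups lay above day 0. Its log2 change was 0.10 ± 0.054 for day 14 against day 0 and 0.05 ± 0.054 for irradiated cells against day 0. Supt16_sg2 had 733 and 711 in irradiated cells, 710 and 683 at day 14, and 693 and 737 at day 0. Supt16_sg3 had 576 and 581 in irradiated cells, 506 and 584 at day 14, and 646 and 577 at day 0. Supt16_sg4 had 1395 and 1351 in irradiated cells, 1325 and 1351 at day 14, and 1556 and 1342 at day 0. In Supt16_sg3 and Supt16_sg4, at position 2, day 0 replicate 1 was the high library, at log2 ratios of 0.26 and 0.31 to replicate 2.

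Across the 13 genes, the median standard deviation over a gene's guides was 0.060 for irradiated cells against day 14, where the library's genes had 0.074. For irradiated cells against day 0 it was 0.056, where they had 0.103, and without day 0 replicate 1 it was 0.081, where they had 0.063. For day 14 against day 0 it was 0.086, where they had 0.109, and without that library both were at 0.075. Against day 0 the order of the 2 medians therefore rested on day 0 replicate 1.

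Single knockouts were also read from the constructs that paired a guide of these genes with a non-targeting guide. None of the 13 genes passed the edgeR test in any comparison. For irradiated cells against day 0 the log2 changes ran from -0.51 for Asf1a to 0.45 for Ssrp1, and for irradiated cells against day 14 from -0.38 for Morf4l2 to 0.18 for Kdm2a. For day 14 against day 0 they ran from -0.34 for Kdm2a to 0.43 for Hdac10. These sums rest on fewer constructs than those over all partners, and none of the genes at the ends of these ranges passed in either kind of sum.

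A further question of the design is whether losing both genes of a pair changes growth beyond the sum of both losses. The interaction was measured for the 78 pairs among the 13 genes and tested among 105111 gene pairs. It is the log2 change left in the double knockout once an additive effect of each gene is taken away. These effects were fitted over the gene pairs of each library, not taken from the constructs with a non-targeting guide. None of the 78 pairs passed in any comparison, and the share called over all pairs was 0.0% for irradiated cells against day 0, 0.0% for irradiated cells against day 14 and 0.0% for day 14 against day 0. None of the 78 reached an unadjusted p under 0.05 either, where only 372, 874 and 443 of the 105111 pairs did in these 3 comparisons. With so few over all pairs, 0 of 78 does not set these pairs apart. The smallest p was 0.0548 for irradiated cells against day 0. Intervals were wide, reaching 1.28 to either side at the median (log2), and of the changes simulated for day 14 against day 0 over 105111 pairs, 8% were recovered at 4-fold and 70% at 16-fold.

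Pairs within a complex or family were read one by one, in reads summed over both orders and not scaled for library depth. The FACT pair, Ssrp1 with Supt16, had 375 and 327 reads in irradiated cells, 706 and 328 at day 14, and 397 and 365 at day 0. The high library was day 14 replicate 1, which lacked reads for most guide pairs. Its interaction was 0.25 ± 0.65 for irradiated cells against day 0, -1.24 ± 0.66 for irradiated cells against day 14, and 1.49 ± 0.66 for day 14 against day 0, with adjusted p-values of 1.00, 1.00 and 0.969. The CAF-1 pair, Chaf1a with Chaf1b, had 329 and 349 reads in irradiated cells, 69 and 499 at day 14, and 548 and 472 at day 0. The single low count was again in day 14 replicate 1. Interactions of this pair ran from -0.18 to 0.03, with standard errors of 0.84.

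Morf4l1 with Morf4l2 had 285 and 1617 reads in irradiated cells, 701 and 247 at day 14, and 513 and 417 at day 0, and the high counts were those of irradiated replicate 2 and day 14 replicate 1. The interaction of this pair was 1.30 ± 0.88 for irradiated cells against day 0, 0.41 ± 0.87 for irradiated cells against day 14 and 0.89 ± 0.88 for day 14 against day 0. Hdac9 with Hdac10 had 1575 and 1137 reads in irradiated cells, 1309 and 974 at day 14, and 1910 and 1412 at day 0, at interactions from -0.09 to 0.08. This was the most abundant of the 7 pairs and had the smallest standard error, 0.38. Kdm1a with Kdm2a had 640 and 271 reads in irradiated cells, 610 and 678 at day 14, and 1043 and 735 at day 0. Kdm1a with Kdm4d had 446 and 374 in irradiated cells, 125 and 418 at day 14, and 640 and 668 at day 0. Kdm2a with Kdm4d had 949 and 572 in irradiated cells, 582 and 483 at day 14, and 619 and 556 at day 0. The interactions of these 3 demethylase pairs ran from -0.84 to 0.75, with standard errors from 0.45 to 0.61.

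Of the pairs across families, those of smallest p for irradiated cells against day 0 were Hdac10 with Kdm4d at 0.89 ± 0.38, Kdm1a with Morf4l1 at 0.98 ± 0.50 and Kdm2a with Morf4l1 at -0.74 ± 0.42. Hdac10 with Kdm4d had 1225 and 2702 reads in irradiated cells, 1104 and 1060 at day 14, and 1272 and 1222 at day 0. Kdm1a with Morf4l1 had 665 and 1974 reads in irradiated cells, 649 and 436 at day 14, and 876 and 744 at day 0. In both pairs the count of irradiated replicate 2 stood apart from every other library. Kdm2a with Morf4l1 had 500 and 461 reads in irradiated cells, 597 and 527 at day 14, and 1199 and 729 at day 0. These reads are not scaled for library depth, which was lower in the day 14 libraries than in the day 0 libraries.

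The remaining pairs named by the rule were Hdac10 with Morf4l2 and Chaf1b with Kdm2a for irradiated cells against day 14, and Chaf1a with Kdm4d and Asf1a with Kdm4d for day 14 against day 0. Hdac10 with Morf4l2 had 807 and 1778 reads in irradiated cells, 404 and 599 at day 14, and 1111 and 956 at day 0, at an interaction of 0.97 ± 0.44 against day 14. Chaf1b with Kdm2a had 546 and 257 in irradiated cells, 519 and 571 at day 14, and 767 and 998 at day 0, at -0.91 ± 0.52. Asf1a with Kdm4d had 504 and 491 in irradiated cells, 1104 and 276 at day 14, and 559 and 431 at day 0, at 1.51 ± 0.76 for day 14. The highest or the lowest count of each pair was in irradiated replicate 2 or day 14 replicate 1.

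Chaf1a with Kdm4d had 1029 and 752 reads in irradiated cells, 1279 and 280 at day 14, and 388 and 570 at day 0. Irradiated counts were above day 0 in both libraries, and the day 14 libraries lay on either side of it. The interaction was 1.34 ± 0.82 for irradiated cells against day 0, -0.34 ± 0.80 for irradiated cells against day 14 and 1.69 ± 0.83 for day 14 against day 0, with adjusted p-values of 1.00, 1.00 and 0.969 in edgeR. Without irradiated replicate 2 and day 14 replicate 1, it was 1.47 for irradiated cells against day 0 and 1.66 against day 14, with adjusted p-values of 3.67e-05 and 0.00108 in edgeR. That setting leaves 1 irradiated and 1 day 14 library, whose spread is taken from the day 0 libraries. Kdm2a with Kdm4d was also called there for irradiated cells against day 0, at 1.06 with an adjusted p of 0.00525. The setting called 1261 of all pairs for irradiated cells against day 0, among them 4 of the 78, and 215 for irradiated cells against day 14, among them 1 of the 78.

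Constructs whose guides both target the same gene numbered 4 for each of the 13 genes. Their summed reads were 0 in day 14 replicate 1 for Kdm1a, and 0 for Morf4l2 in both irradiated replicate 2 and day 14 replicate 1. Chaf1a had 0 reads in irradiated replicate 2 and 4 in day 14 replicate 1. In the other 4 libraries every one of the 13 genes had at least 10 such reads. Under 10 such reads were held by 2 of the 13 genes in irradiated replicate 2 and by 5 in day 14 replicate 1. The 5 include Kdm4d with 5 reads and Ssrp1 with 3. Over all genes, 12.6% had under 10 such reads in irradiated replicate 2 and 23.3% in day 14 replicate 1, so a low sum in these libraries was common. No test was made on these sums.

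Other chromatin genes gave a background. Of 87 listed chromatin genes outside the 13, 22 were in the library, and 0 passed the gene test in any comparison. For irradiated cells against day 0, 19 of the 22 had log2 changes below 0, with a median of -0.04, where 52.1% of all genes were below 0 with a median of 0.00. Both irradiated libraries lay below day 0 in 6 of the 22, where the share over all genes was 18.1%, and above in 2, where it was 20.7%. For day 14 against day 0, 14 of the 22 were below 0, with 2 wholly below day 0 and 1 above, and for irradiated cells against day 14, 14 were below 0, with 3 wholly below and 1 above. In the fit without day 0 replicate 1, 9 of the 22 were below 0 for irradiated cells against day 0, with a median of 0.01, and 7 for day 14 against day 0. The smallest p was that of Ino80, the motor subunit of the INO80 remodeller, with 1621 and 1609 CPM in irradiated cells, 1581 and 1642 at day 14, and 1940 and 1727 at day 0. Its log2 change was -0.18 ± 0.068 for irradiated cells against day 0 (edgeR p 0.0364, adjusted p 0.623) and -0.19 ± 0.068 for day 14 against day 0, and without day 0 replicate 1 both were at -0.10. Kat5, the TIP60 acetyltransferase that shares a complex with Morf4l1, was at -0.12 ± 0.073 for irradiated cells against day 0, with an adjusted p of 0.623, and at -0.03 without that library.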

How the data were processed

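The deposited files hold whole-number read counts per guide pair, not normalised, per the file headers and the labels. Guide pairs without reads are not listed in the per-library tables and were set to 0. HISAT2 2.1.0 and build hg38 are named, per the submitters' processing notes; the step that assigned reads to guides is not stated in the sources used here. In each library 0 guide pairs differed between its own and the combined table, and 2 columns of the combined tables match no sample and were not used. Guide sequences and target sites were not used here.

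Counts were summed per guide over all partners, per gene over every construct that carries its guides, and per gene pair over both orders. They were tested with edgeR 4.0.16 (quasi-likelihood, two-sided, TMM, all 6 libraries, group as the only term) for guides of mean count 2000 or more and genes and gene pairs of mean count 20 or more. Gene pairs had an offset from an additive fit (prior count 2, 25 iterations). Tests were run on simulated data in which many features changed at once, for gene pairs 100 at each fold. Alternatives used DESeq2 1.42.0, limma 3.58.1, other scalings, subsets of constructs and left-out libraries. Gene positions are those of RefSeq's GRCh38.p14 table. By rule, every member gene is named, with all chaperone guides, the modifier guides of smallest p in each family and comparison, pairs of 1 family or complex and the 3 pairs of smallest p. The genes, lists and tests were chosen with earlier results of these data known.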

Additional observations from a re-analysis of the deposited data

How the results depend on the processing

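With edgeR and all 6 libraries 0 guides, 0 genes and 0 gene pairs passed in each comparison; counts under other settings follow for irradiated cells against day 0, irradiated cells against day 14 and day 14 against day 0, in that order. For guides, DESeq2's Wald test called 27, 25 and 24, scaling to non-targeting guides 2, 2 and 0, and the replicate block 1, 1 and 0. For irradiated cells against day 14, DESeq2 size factors called 1 guide, TMM over both positions 3, limma-trend 1, no filter 1 and a fit of only the 4 libraries 10. Leaving out single libraries called 0 to 312, 0 to 10 and 0 to 310 guides, with the highest counts without day 0 replicate 2, and 4, 10 and 3 without day 0 replicate 1. For genes, DESeq2 called 2, 1 and 2, guides at position 1 alone 2, 10 and 4, the 4 libraries 1 for irradiated cells against day 14, and left-out libraries 0 to 163, 0 to 1 and 0 to 168. For gene pairs, the fit without both incomplete libraries called 1261, 215 and 167, the replicate block 1, 1 and 0, and left-out libraries 0 to 1, 0 to 1 and 0. The same-numbered libraries were not paired in the labels, and their deviations from group means had correlations of 0.107 for irradiated and day 0, -0.579 for irradiated and day 14, and -0.045 for day 14 and day 0. Crossing the numbers of the irradiated and day 14 libraries, added after the data were seen, called 65 guides, of which 2 target these genes (Kdm2a_sg1 and Hdac10_sg1), and 28 genes, of which 1 is among the 13 (Kdm2a). Leaving out day 0 replicate 2, the setting behind the highest gene counts above, leaves 1 day 0 library. For day 14 against day 0 it put Asf1a at -0.17 and Kdm2a at -0.16, and without day 0 replicate 1 they were at -0.05 and -0.11. For irradiated cells against day 0 it put Asf1a at -0.15 and Kdm1a at -0.16, and without day 0 replicate 1 they were at -0.02 and -0.11. Chaf1a with Kdm4d changed sign for irradiated cells against day 14, at -0.34 in all libraries and 1.66 without both incomplete libraries; the cause was not tested. Modifiers minus chaperones for irradiated cells against day 14 was -0.02, -0.0092 with demethylases and deacetylases alone and -0.0056 at position 2. Over 1288 guide, 676 gene and 420 pair values under other settings, signs changed in 87, 87 and 48, in all but 1 of them with no call in either setting and an unadjusted p of at least 0.05 at the start. Precision is limited by 2 libraries a group and, for pairs, by the constructs missing from 2 libraries.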
